A study of Homo sapiens with 9 samples.

Results

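Phosphorylation of eIF2 alpha, the regulatory subunit of translation initiation factor eIF2, is set by kinases, removed by a phosphatase and fed by sensors of cellular damage. The 10 genes that encode this machinery were examined in HEK293T cells treated with fluorogenic RNA ligands. They are the kinases EIF2AK1 (HRI), EIF2AK2 (PKR), EIF2AK3 (PERK) and EIF2AK4 (GCN2), the target EIF2S1, the phosphatase subunits PPP1R15A (GADD34) and PPP1R15B (CReP), and the relays DELE1, OMA1 and GCN1. They were selected by symbol in the deposited comparison tables, where DELE1 carries its former name KIAA0141, and then by gene identifier in the count files. All 10 were found among 57500 listed genes, and all 10 passed the filter on low counts in each comparison.

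HEK293T, an established human embryonic kidney line, was incubated for 5 h with 10 µM HBC530, with 10 µM MsOc3HBC or with the vehicle DMSO alone, and poly(A) RNA was sequenced from 3 biological replicates of each. Whether the replicates were cultures of separate days is not given in the sources used here, so p-values measure the spread between these samples. HBC530 is a green fluorophore that lights up when it binds the RNA aptamer Pepper without a covalent bond. MsOc3HBC is an HBC derivative with an added alkyl chain that ends in a mesylate, a leaving group, and it can therefore alkylate RNA. The experiment addressed whether such an electrophile disturbs endogenous transcripts, and no aptamer plasmid is named for these samples.

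Each eIF2 alpha kinase answers to another form of stress. HRI is known for heme shortage and, through OMA1 and DELE1, for mitochondrial damage, PKR for double-stranded RNA, PERK for unfolded proteins in the endoplasmic reticulum (ER), and GCN2 with its partner GCN1 for uncharged transfer RNA and collided ribosomes. Phosphorylated eIF2 blocks its own exchange factor eIF2B, so that most translation falls, while a few mRNAs with upstream reading frames, those of ATF4 and PPP1R15A among them, continue to be translated. PPP1R15A then recruits protein phosphatase 1 to eIF2 alpha and closes the loop. The kinases and relays are switched at the level of protein, and the values below are transcript levels. Kinase activity and phosphorylation were not measured.

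The site on which all 4 kinases converge lies in EIF2S1 (chromosome 14, 67359997 to 67386516, plus strand, GRCh38). It is shown because it is the single residue through which the machinery acts. In the reference genome the serine codon, codon 52 counted from the initiator methionine, sits in exon 2 at the centre of chr14:67364897-67364947, where capitals mark the codon.
EIF2S1: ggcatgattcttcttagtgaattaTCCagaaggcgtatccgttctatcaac

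The phosphatase subunits are a stress-induced and a constitutive member of one family, and their promoters differ. RefSeq's promoter table (GRCh38.p14) held 9 of the 10 genes, all but EIF2AK1, and the 250 bases before the start of the subunits are printed to show the motif matches. For PPP1R15A (chr19:48872171-48872420, plus strand) the capitals mark TGACGTCA, the cAMP response element that ATF and CREB factors are known to bind. For PPP1R15B (chr1:204411818-204412067, minus strand) they mark TGATGNAA, the core of the C/EBP-ATF response element, and further on a CCAAT box.
PPP1R15A: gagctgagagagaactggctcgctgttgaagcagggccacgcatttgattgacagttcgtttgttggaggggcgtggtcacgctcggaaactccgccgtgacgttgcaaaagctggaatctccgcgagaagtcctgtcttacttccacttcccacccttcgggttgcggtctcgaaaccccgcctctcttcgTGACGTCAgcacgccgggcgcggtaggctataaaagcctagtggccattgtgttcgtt
PPP1R15B: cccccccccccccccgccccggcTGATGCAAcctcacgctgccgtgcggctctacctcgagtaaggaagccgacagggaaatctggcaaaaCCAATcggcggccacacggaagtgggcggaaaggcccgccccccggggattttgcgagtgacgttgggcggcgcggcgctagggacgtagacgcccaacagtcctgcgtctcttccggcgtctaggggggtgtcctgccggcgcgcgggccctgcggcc

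The 3 motifs were searched on both strands. TGACGTCA lay 58 to 51 bases before the start of PPP1R15A and in no other of the 9 promoters, against 1.65% of 35116 promoters of the same length in the table. TGATGNAA lay 227 to 220 bases before the start of PPP1R15B alone, against 3.14% of all promoters. CCAAT was present in 4 of the 9, namely EIF2AK2, EIF2AK3, PPP1R15B and DELE1, against 32.0%. These matches describe letters in the window and were not tested as binding sites.

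The libraries held between 28056929 and 62205366 counts on genes. Replicate 3 of both ligands stood apart from the other 7 libraries: on the first principal component it lay at 29.5 with HBC530 and 30.9 with MsOc3HBC, while the others lay between -14.0 and -2.67. It also held the fewest counts, 34963314 with HBC530 and 28056929 with MsOc3HBC, while the other 7 libraries held 43199102 or more. The number of genes with a count was lowest there too, 26204 and 25148. Whether depth sets these libraries apart was not tested. Among the markers of the line, VIM, KRT8, KRT18, NEFM and NEFL were abundant, between 53.2 and 171 TPM (counts scaled for exonic length and library depth), and PAX2 was low at 1.02 to 2.15 TPM. Of the markers of other cell types, PTPRC, CD3E, ALB, HBB and PECAM1 did not exceed 0.0965 TPM, whereas COL1A1 was present at 6.02 to 12.5 TPM. In bulk RNA, a change in few cells and a smaller change in all cells cannot be told apart.

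All 10 genes were expressed in every library. Per length, in TPM, EIF2AK1 was the most abundant with DMSO at 117 ± 4.43 (mean ± SD, n = 3), ahead of GCN1 at 103 ± 6.09, EIF2S1 at 81.2 ± 9.52, PPP1R15B at 46.5 ± 4.61 and PPP1R15A at 31.4 ± 0.820. OMA1 followed at 23.7 ± 2.46, DELE1 at 19.0 ± 0.288, EIF2AK2 at 16.1 ± 2.05, EIF2AK4 at 16.1 ± 1.08 and EIF2AK3 at 6.40 ± 0.716. The DMSO libraries of neighbours in this order did not overlap except for EIF2AK2 and EIF2AK4. HRI, the kinase best known from red blood cell precursors, thus supplied between 74.0 and 78.9% of the summed kinase TPM in each of the 9 libraries, and PERK between 2.81 and 4.46%.

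**Figure D1:**
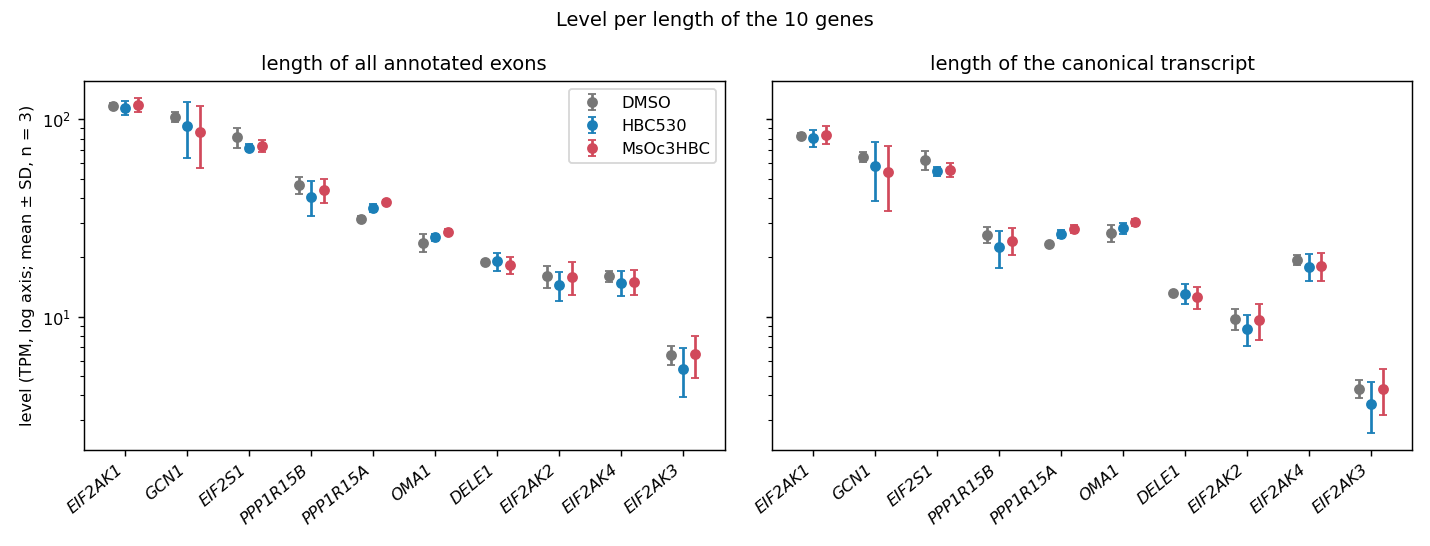
Level per length of the 10 genes in TPM on a log axis, as mean ± SD of 3 libraries per treatment, from the length of all annotated exons (left) and from that of the canonical transcript (right). EIF2AK1 is the highest and EIF2AK3 the lowest in both panels, while the order between them depends on the length used.

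With the ligands, more neighbours in the order overlapped. The levels of EIF2AK1 and GCN1 and those of GCN1 and EIF2S1 overlapped under both ligands, where replicate 3 was the lowest for GCN1. PPP1R15A and PPP1R15B, which were apart with DMSO, overlapped with HBC530 and with MsOc3HBC. This overlap came from replicate 3, where PPP1R15B was at 31.4 TPM with HBC530 and 37.5 TPM with MsOc3HBC. In replicates 1 and 2 PPP1R15B stayed at 44.1 TPM or more, and PPP1R15A at 39.1 TPM or less. With depth scaled by TMM factors in place of TPM, the pair did not overlap with MsOc3HBC. The length of the canonical transcript in place of that of all annotated exons kept 4 of the 10 genes in their DMSO place, and put OMA1 (26.6 ± 2.56 TPM) ahead of PPP1R15B (26.0 ± 2.37) and PPP1R15A (23.3 ± 0.428). EIF2AK1 then made up 70.0 to 74.9% of the kinases.

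No gene of the machinery changed at an adjusted p under 0.05 with either ligand (edgeR's quasi-likelihood test, Benjamini-Hochberg adjustment over all genes). With HBC530 the count was 0 of 10, against 0.017% of the 17684 genes tested. With MsOc3HBC it was 0 of 10, against 0.154% of 17514. The methods name a looser threshold (adjusted p under 0.5, and more than 1 unit of log2 change), and it was also passed by 0 of 10 with each ligand, against 0.0226% and 0.56% of all genes. DESeq2 and limma-voom likewise called none of the 10. At an unadjusted p under 0.05 stood 1 of 10 with HBC530, PPP1R15A, against 5.07% of all genes, and 2 of 10 with MsOc3HBC, PPP1R15A and OMA1, against 10.9%.

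The 95% confidence intervals give the range of change that the fit allows for each gene. Their coverage in these libraries was not tested. With HBC530 the interval lay within -0.5 to 0.5 on the log2 scale for 9 of the 10 genes, all but EIF2AK3, against 59.7% of all genes. With MsOc3HBC this held for 8 of 10, all but PPP1R15A and GCN1, against 55.9% of all genes. Every one of the 10 intervals lay within -1 to 1 for both ligands. The median log2 fold change of the 10 genes was -0.07 with HBC530 and 0.01 with MsOc3HBC, beside 0.00464 and 0.0122 over all genes tested. Both comparisons use the same DMSO libraries.

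**Figure D2:**
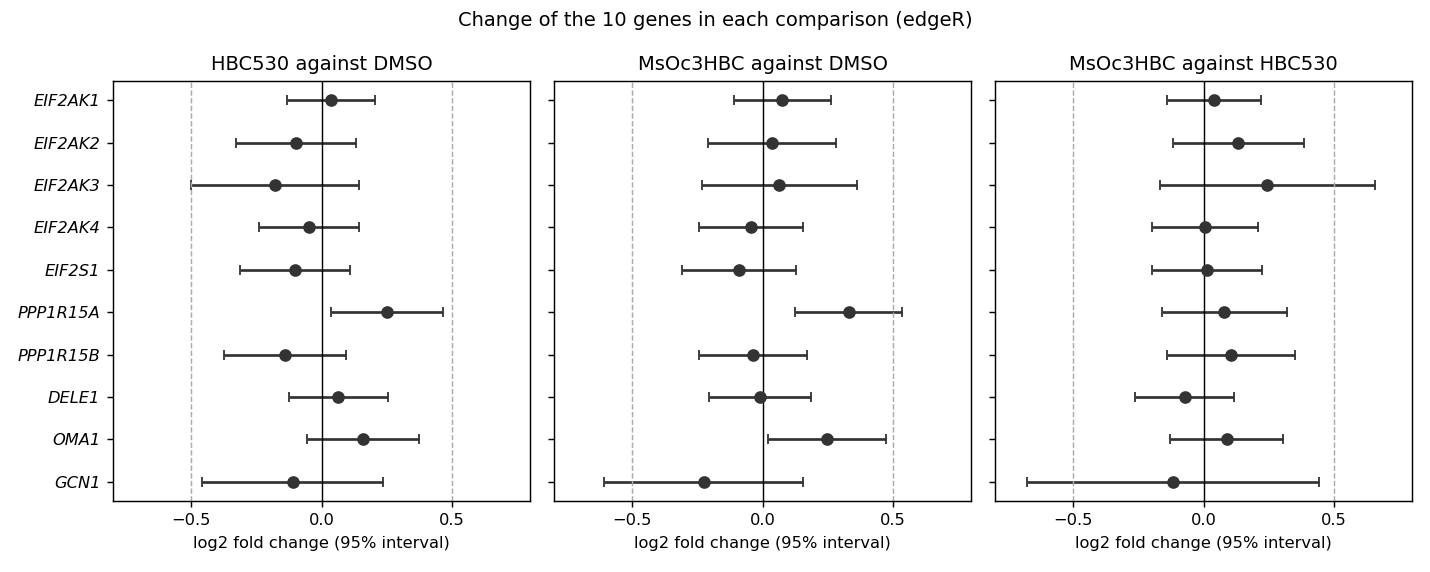
Log2 fold change of each gene with its 95% confidence interval (edgeR) for HBC530 against DMSO, MsOc3HBC against DMSO and MsOc3HBC against HBC530, with dashed lines at -0.5 and 0.5. All intervals cross 0 except those of PPP1R15A against DMSO with both ligands and of OMA1 with MsOc3HBC.

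PPP1R15A (chromosome 19, 48872392 to 48876057), which directs the phosphatase to eIF2 alpha and is itself known as a target of ATF4 and CHOP, stood first among the 10 by p with both ligands. Its level was 28.5, 28.2 and 28.4 CPM (counts scaled for library depth with TMM factors) in DMSO replicates 1 to 3. HBC530 libraries held 30.8, 32.9 and 37.4 CPM, and MsOc3HBC libraries 34.9, 33.8 and 38.0 CPM. Every ligand library was above every DMSO library, and the DMSO libraries, which both comparisons share, lay close together. Groups did not overlap, in either direction, for 13.9% of all genes with HBC530 and 18.4% with MsOc3HBC. Replicate 3 was the highest library of each ligand. The log2 fold change was 0.25 with HBC530 (SE 0.0973, 95% interval 0.03 to 0.47, unadjusted p = 0.0271, adjusted p = 0.751, edgeR), a level 18.9% higher. With MsOc3HBC it was 0.33 (SE 0.0927, interval 0.13 to 0.53, unadjusted p = 0.00447, adjusted p = 0.289, edgeR), a level 25.6% higher. By unadjusted p the gene ranked 271 of 17514 with MsOc3HBC and 450 of 17684 with HBC530, so neither difference passed the adjustment. Over the 14 alternative analyses of each comparison the log2 fold change stayed between 0.18 and 0.31 with HBC530 (adjusted p 0.470 to 0.960) and between 0.28 and 0.36 with MsOc3HBC (adjusted p 0.143 to 0.952, edgeR, DESeq2 or limma). The lowest values, 0.18 (adjusted p = 0.935, edgeR) and 0.28 (adjusted p = 0.143, edgeR), were those without replicate 3 of the ligand concerned.

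PPP1R15B (chromosome 1, 204403387 to 204411791), the constitutive alternative to PPP1R15A in the same phosphatase, had fold changes below 0. Its CPM was 76.5, 69.9 and 66.1 with DMSO, 67.5, 69.3 and 55.5 with HBC530, and 70.0, 72.1 and 64.3 with MsOc3HBC, and the groups overlapped. The log2 fold changes were -0.14 (SE 0.106, adjusted p = 0.751, edgeR) and -0.04 (SE 0.0950, adjusted p = 0.907, edgeR). Per length, the ratio of PPP1R15A to PPP1R15B transcripts was 0.629, 0.681 and 0.727 with DMSO. It was 0.771, 0.803 and 1.14 with HBC530 and 0.843, 0.792 and 0.997 with MsOc3HBC. The ratio was thus higher in each of the 6 ligand libraries than in any DMSO library, and highest in replicate 3 of every treatment. Its absolute value depended on the length used. From canonical transcript lengths it was 0.833 to 0.962 with DMSO, 1.02 to 1.51 with HBC530 and 1.05 to 1.32 with MsOc3HBC. With those lengths PPP1R15A exceeded PPP1R15B in all 6 ligand libraries. The ratio is given as a description, since the pair was set side by side after their values were seen.

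**Figure D3:**
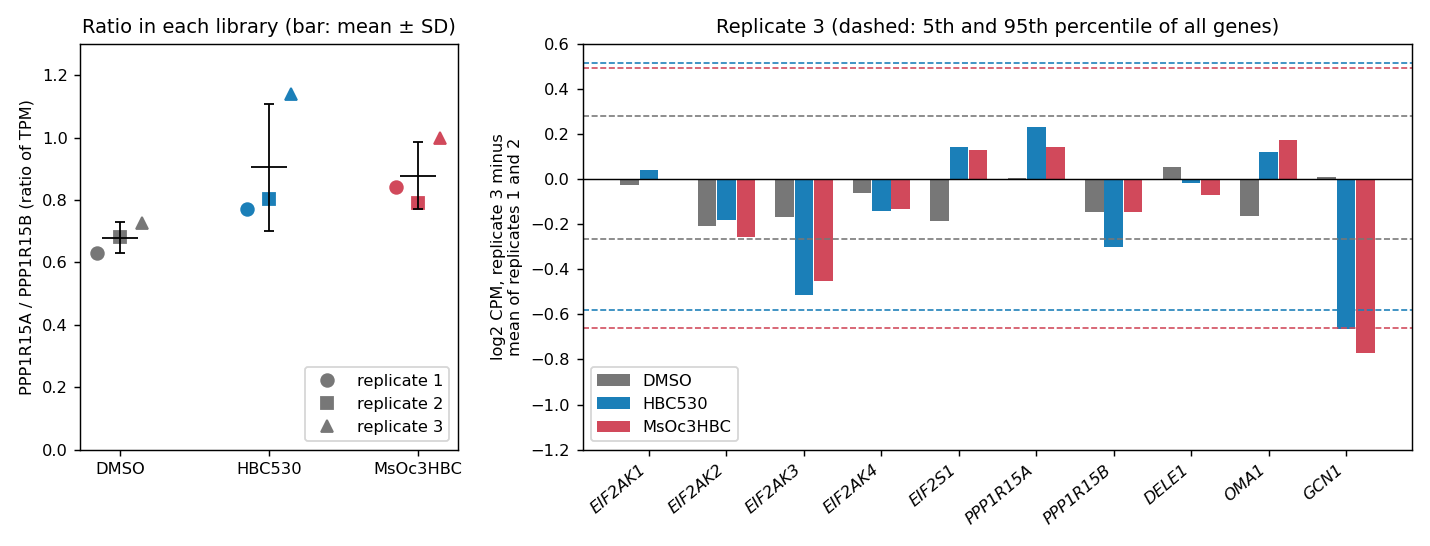
Left, ratio of PPP1R15A to PPP1R15B TPM in each library with mean ± SD (n = 3), where all 6 ligand libraries lie above the DMSO libraries. Right, log2 CPM of replicate 3 minus the mean of replicates 1 and 2 for each gene and treatment, with dashed lines at the 5th and 95th percentile of all genes, where GCN1 is beyond the lower line with both ligands.

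Among the kinases, EIF2AK1 (chromosome 7, 6022244 to 6059230) varied least. Its CPM was 192, 188 and 187 with DMSO, 188, 196 and 197 with HBC530, and 199, 199 and 198 with MsOc3HBC. The MsOc3HBC libraries lay above all others, yet the log2 fold change against DMSO was 0.08 (SE 0.0841, interval -0.11 to 0.26, adjusted p = 0.768, edgeR). In CPM, groups that did not overlap were found for 3 of the 10 genes with MsOc3HBC, EIF2AK1, PPP1R15A and OMA1, all higher, against 18.4% of all genes. With HBC530 this held for 1 of 10, PPP1R15A, against 13.9%. In TPM the MsOc3HBC and DMSO libraries overlapped for EIF2AK1 and OMA1, and not for PPP1R15A. EIF2AK1 shares 532 exonic bases, 9.59% of its length, with AIMP2 on the opposite strand. Because the strand setting of the counting is not given in the sources used here, how reads there were assigned cannot be told.

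EIF2AK3 (chromosome 2, 88556741 to 88627576), the PERK gene, was the least abundant member and one of the most variable. Its CPM was 11.1, 9.95 and 9.35 with DMSO, 9.47, 10.2 and 6.88 with HBC530, and 11.4, 11.6 and 8.40 with MsOc3HBC. All 3 groups overlapped, and replicate 3 was the lowest in each. The log2 fold change was -0.18 with HBC530 (SE 0.145, interval -0.50 to 0.14, adjusted p = 0.755, edgeR) and 0.06 with MsOc3HBC (SE 0.136, interval -0.23 to 0.36, adjusted p = 0.885, edgeR). Without replicate 3 of HBC530 the former was -0.03, and without replicate 3 of MsOc3HBC the latter was 0.19.

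EIF2AK2 (chromosome 2, 37099210 to 37157065), the PKR gene and an interferon target, ranged from 43.1 to 56.8 CPM over the 9 libraries. The log2 fold change was -0.10 with HBC530 (SE 0.104, adjusted p = 0.791) and 0.03 with MsOc3HBC (SE 0.112, adjusted p = 0.930, edgeR), and the latter turned to -0.03 without DMSO replicate 3. EIF2AK4 (chromosome 15, 39934146 to 40035591), the GCN2 gene, ranged from 50.6 to 58.8 CPM, with log2 fold changes of -0.05 and -0.04. Groups overlapped for both kinases with both ligands.

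EIF2S1, the substrate, ranged from 117 to 147 CPM. The mean was 134 ± 12.4 CPM with DMSO, 124 ± 7.97 with HBC530 and 125 ± 7.65 with MsOc3HBC (SD, n = 3), and the groups overlapped. The fold changes of -0.10 (SE 0.0954, adjusted p = 0.766) and -0.09 (SE 0.0995, adjusted p = 0.763, edgeR) on the log2 scale had intervals of -0.31 to 0.11 and -0.31 to 0.13. EIF2S1 shares 4.76% of its exonic bases with ATP6V1D on the other strand.

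OMA1 (chromosome 1, 58415384 to 58546802), the inner membrane protease that cleaves DELE1 in stressed mitochondria, was 27.8, 25.4 and 23.7 CPM with DMSO. It was 28.4, 27.2 and 30.2 CPM with HBC530, where 1 library lay within the DMSO range, and 29.2, 29.0 and 32.9 CPM with MsOc3HBC, where all lay above it. The log2 fold change was 0.16 with HBC530 (SE 0.0966, interval -0.05 to 0.37, adjusted p = 0.751, edgeR) and 0.25 with MsOc3HBC (SE 0.102, interval 0.02 to 0.47, unadjusted p = 0.0342, adjusted p = 0.427, edgeR). The latter was under an unadjusted p of 0.05 in 8 of the 14 alternatives, with values from 0.19 to 0.30. DELE1 (chromosome 5, 141923808 to 141942047), the relay that carries the mitochondrial signal to HRI, stayed between 32.2 and 36.6 CPM, with log2 fold changes of 0.06 and -0.01 and overlapping groups.

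GCN1 (chromosome 12, 120127203 to 120194710), the ribosome-bound activator of GCN2, depended on a single replicate of each ligand. Its CPM was 271, 310.4 and 292 with DMSO, 302, 312 and 194 with HBC530, and 274, 302 and 169 with MsOc3HBC. Replicates 1 and 2 of the ligands lay near the DMSO libraries and replicate 3 of both lay well below them. On the log2 scale replicate 3 differed from the mean of replicates 1 and 2 by -0.66 with HBC530 and -0.77 with MsOc3HBC, beyond the 5th percentile of all genes (-0.58 and -0.66), and by 0.01 with DMSO. The log2 fold change was -0.11 with HBC530 (SE 0.157, interval -0.46 to 0.24) and -0.23 with MsOc3HBC (SE 0.174, interval -0.61 to 0.16), with adjusted p = 0.844 and 0.653 (edgeR). Without replicate 3 of the ligand concerned these values were 0.08 and -0.01. The part that whatever sets these libraries apart has in the GCN1 values was not tested.

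**Figure D4:**
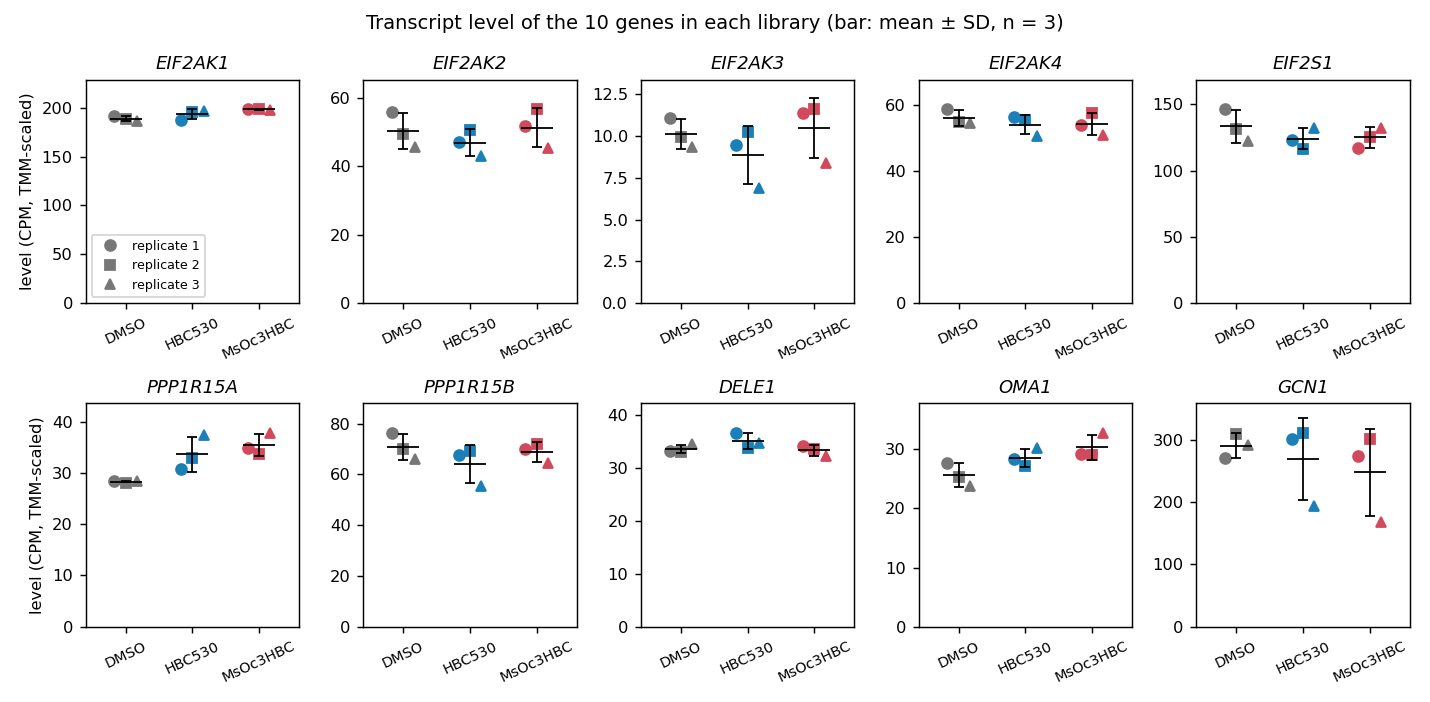
Level of each of the 10 genes in every library, in CPM after TMM scaling with the axis from 0, by treatment (colour) and replicate (circle 1, square 2, triangle 3), with mean ± SD (n = 3). PPP1R15A is higher in all 6 ligand libraries than in DMSO, and GCN1 is low in replicate 3 of both ligands.

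MsOc3HBC and HBC530, which differ by the mesylate-bearing chain, were compared at the same dose and time. The adjusted p was under 0.05 for 0 of 10 genes, against 0% of the 17397 genes tested, and the threshold of the methods was passed by 0 of 10, against 0.0115%. At an unadjusted p under 0.05 stood 0 of 10, against 7.32%, and DESeq2 and limma-voom gave 0 of 10 as well. In CPM the groups did not overlap for 1 of 10, EIF2AK1, against 15.5%, and in TPM they overlapped for that gene. The differences ran from -0.12 for GCN1 (interval -0.68 to 0.44) to 0.24 for EIF2AK3 (interval -0.17 to 0.66) on the log2 scale. They were positive for 8 of 10, against 53.8% of all genes. PPP1R15A differed by 0.08 (interval -0.16 to 0.32, adjusted p = 0.902, edgeR) and OMA1 by 0.09 (interval -0.13 to 0.30). The interval lay within -0.5 to 0.5 for 8 of the 10, against 51% of all genes, and those of EIF2AK3 and GCN1 reached beyond these limits in this fit without pairing.

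Between the ligands, same-numbered libraries were taken as pairs because they correlated in these data, since the labels give only replicate numbers. A fit with the replicate as a block, chosen in this way, made 11.4% of all genes pass an adjusted p of 0.05. Of the 10 genes, 0 passed. At an unadjusted p under 0.05 stood 3 of 10, against 27.2% of all genes. These were EIF2AK3 (0.24, SE 0.0785, adjusted p = 0.0642), GCN1 (-0.13, SE 0.0474, adjusted p = 0.101) and EIF2AK2 (0.13, SE 0.0529, adjusted p = 0.129, edgeR with block). With the block, whose intervals were added after seeing the data, the 95% interval lay within -0.5 to 0.5 for all 10 genes, against 69.1% of all genes, and ran from 0.07 to 0.41 for EIF2AK3 and from -0.23 to -0.03 for GCN1. Because the pairs were chosen from these same values, the p-values and intervals of the blocked fit are descriptive only.

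The remaining genes of the pathway were grouped by role. Of the partners of eIF2 alpha and the catalytic subunits of protein phosphatase 1, 0 of 5 changed against DMSO with either ligand (edgeR, adjusted p under 0.05). EIF2S2, the beta subunit of eIF2, had the smallest p with MsOc3HBC at 0.48 (SE 0.140, adjusted p = 0.304), and PPP1CC was at -0.10 (adjusted p = 0.740). Of the 5 subunits of eIF2B, the exchange factor, 0 changed with either ligand. All 5 had values below 0 with MsOc3HBC, as did 8329 of the 17514 genes tested. Their values ran from -0.15 for EIF2B2 to -0.06, with EIF2B1 at -0.08. Of 10 regulators of the kinases and of OMA1, 0 changed, with IMPACT, an inhibitor of GCN2, at 0.23 (adjusted p = 0.488) and ADAR, which edits double-stranded RNA and so restrains PKR, at -0.22 (adjusted p = 0.544). Of 9 factors of ATF4 translation and start codon choice, 0 changed, with EIF1 at 0.21 and BZW1 at -0.21. At an unadjusted p under 0.05 in these 4 lists stood 1 gene with HBC530 (BZW1) and 1 with MsOc3HBC (EIF2S2), and DESeq2 and limma-voom called none against DMSO.

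Downstream of eIF2 alpha lie ATF4 and the genes that it activates. Of ATF4 and 11 of its targets, 2 rose with HBC530 and 4 with MsOc3HBC (adjusted p under 0.05), against 0.017% and 0.154% of all genes called in either direction. None fell at that threshold, and the medians were 0.33 and 0.66 on the log2 scale. Values lay above 0 for 11 of the 12 genes with each ligand, against 51.1% of all genes with HBC530 and 52.4% with MsOc3HBC. The lowest were -0.12 and -0.17. ATF4 itself was at 0.37 (adjusted p = 0.751) and 0.63 (adjusted p = 0.0728, edgeR). CHAC1, which degrades glutathione, was 2.29, 2.39 and 2.36 CPM with DMSO, 6.89, 6.30 and 6.55 with HBC530 and 13.7, 14.2 and 16.5 with MsOc3HBC, and rose by 1.49 (SE 0.112, adjusted p = 0.00062) and 2.65 (SE 0.124, adjusted p = 3.7e-06, edgeR). ATF3, a stress-induced transcription factor, rose by 0.74 (adjusted p = 0.0367) and 0.83 (adjusted p = 0.00339). With MsOc3HBC, SESN2, a stress-induced inhibitor of mTORC1 signalling, rose by 0.95 (adjusted p = 0.00198) and DDIT3 (CHOP) by 0.82 (adjusted p = 0.04998, edgeR). DDIT3 shares 28.0% of its exonic bases with the abundant MARS1 on the opposite strand, and how reads there were assigned is not given in the sources used here. Without replicate 3 of the ligand 2 genes of this list passed with HBC530 and 8 with MsOc3HBC, and the number with MsOc3HBC ran from 2 without DMSO replicate 1 to 9 in DESeq2. The call of ATF3 with HBC530 was lost when any library other than replicate 3 of HBC530 was left out, and that of DDIT3 under RLE or upper-quartile scaling.

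Of 7 other ER stress sensors and targets, 0 changed with HBC530 and 1 with MsOc3HBC, HERPUD1, a component of ER-associated degradation, at 0.63 (SE 0.102, adjusted p = 0.0471, edgeR), while DNAJB9 was at 0.53 (adjusted p = 0.178). The call of HERPUD1 was lost in limma-voom and when any library other than replicate 3 of MsOc3HBC was left out. Interferon-induced genes, among which EIF2AK2 belongs, changed in 0 of the 5 tested of 8, with IFIT1 at -0.34 and ISG15 at 0.23 with MsOc3HBC, and IFIT2, MX1 and OAS1 were too low to test. Of the 6 markers of the line 0 changed, the smallest p belonging to NEFM (0.48) and PAX2 (-0.48) with MsOc3HBC, and COL1A1, the 1 marker of other cell types that could be tested, did not pass either. At an unadjusted p under 0.05 stood 1 interferon gene with HBC530, and 3 markers of the line with MsOc3HBC, of which DESeq2 called 1, NEFM.

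Between the ligands, 0 genes of any list passed without the block. With the replicate as a block, 8 of the 12 ATF4 genes were higher and 1 was lower with MsOc3HBC, CHAC1 by 1.17 without the block (adjusted p = 0.102) and with an adjusted p of 2.77e-05 in the blocked fit (edgeR). The blocked fit also called 3 of the 5 eIF2 partners and phosphatase subunits (2 higher), 1 of 5 eIF2B subunits (lower), 3 of 10 regulators (2 higher), 2 of 7 ER genes (higher), 1 of 6 markers of the line and COL1A1 (both lower). In that fit 11.4% of the 17397 genes tested passed an adjusted p of 0.05, and the lists were not tested as sets. The pairs of that fit were chosen from these same values, so its p-values are descriptive only.

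**Figure D5:**
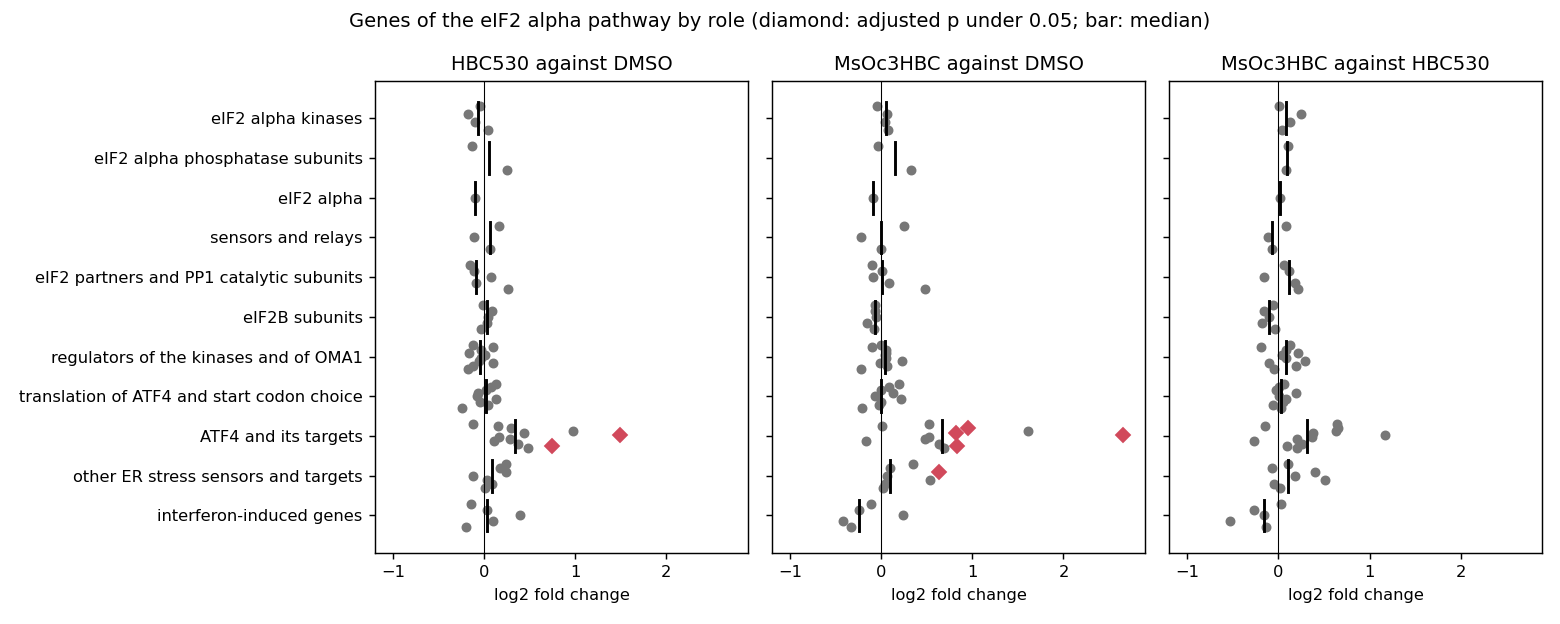
Log2 fold change of every tested gene of the pathway by role, for the 3 comparisons, with a bar at the median of each list and red diamonds for an adjusted p under 0.05 (edgeR, without block). Diamonds stand only among ATF4 and its targets and, with MsOc3HBC, at HERPUD1, and none at the kinases, phosphatase subunits, eIF2 alpha or relays.

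Across the 9 libraries and 13613 genes, the 5 genes with a pattern most like that of PPP1R15A in log2 CPM were C22orf39 (Pearson's r = 0.984, Spearman's rho = 0.950), DYNC2I1 (0.963 and 0.900), ASNS (0.963 and 0.983), PRMT2 (0.963 and 0.933) and DCAF10 (0.961 and 0.933). ASNS, asparagine synthetase, is a known target of ATF4 and was at 0.48 with HBC530 and 0.69 with MsOc3HBC (adjusted p = 0.751 and 0.142, edgeR). Its CPM was 168, 166 and 184 with DMSO, 212, 218 and 295 with HBC530, and 249, 230 and 356 with MsOc3HBC, the highest in replicate 3 of every treatment. Without replicate 3 of the ligand concerned its log2 fold changes were 0.32 (adjusted p = 0.312) and 0.47 (adjusted p = 0.0240, edgeR). The 5 genes most like EIF2AK3 were PRR14L (0.991 and 1), USP9X (0.990 and 0.983), FER (0.988 and 0.983), PAK2 (0.987 and 0.933) and VPS13C (0.985 and 1). Over the 7 libraries without replicate 3 of both ligands, an alternative chosen after seeing the data, r stayed between 0.919 and 0.991 for these 10 genes, but only 1 of the 5 remained among the 5 most similar for each of PPP1R15A (DCAF10) and EIF2AK3 (VPS13C). The coefficients describe libraries that share treatments and depth and carry no test.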

How the data were processed

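The deposited count files hold raw counts per gene, which the authors made by trimming paired-end reads (Trimmomatic 0.36), aligning them to GRCh38 (STAR 2.5.2b) and counting unique gene hits (featureCounts of Subread 1.5.2), per the submitters' processing notes and the methods. The annotation release and the strand setting are not given in the sources used here. The deposited comparison tables of the authors hold DESeq2 log2 fold changes, p-values and normalized counts for each ligand against DMSO. Only their gene names were used.

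Counts of 3 libraries against 3 were compared in R 4.3.3 with edgeR 4.0.16 (filterByExpr, TMM factors, quasi-likelihood F test, Benjamini-Hochberg adjustment over all genes tested). Intervals and SE come from the same fit. CPM were scaled over all 9 libraries, log2 CPM used a prior count of 1, and TPM used the exonic lengths in the count files. Of 57500 gene identifiers, 56410 were found in GENCODE v44, and 99.9% of those overlapped their position there. Alternatives were DESeq2 1.42.0, limma-voom (limma 3.58.1), RLE and upper-quartile scaling, no filter, a minimum of 10 counts per library, the replicate as a block, 1 fit of all 9 libraries, each library left out in turn, and replicate 3 of both ligands left out.

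The members, lists and tests were chosen with earlier results of these data known. Beside the members, the lists were eIF2 partners and phosphatase 1 catalytic subunits, eIF2B, regulators of the kinases and of OMA1, ATF4 translation and start codon choice, ATF4 and its targets, other ER stress genes, interferon-induced genes, markers of the line and of other cell types. Genes of these lists were named if an adjusted p was under 0.05 in any comparison, otherwise at most the 2 with the smallest p for MsOc3HBC against DMSO. BZW1 and EIF2S2 are also named where they make up a count, and ATF4 as the head of its list. For PPP1R15A and EIF2AK3, the 5 most similar genes with a mean of at least 1 CPM were named. Promoters came from RefSeq.

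Same-numbered libraries were taken as pairs where the deviations from their group means correlated over 0.1 in all 3 pairs. This held between MsOc3HBC and HBC530 (0.188, 0.418 and 0.479), and not against DMSO (0.0893, 0.0227 and 0.181 for HBC530, -0.115, 0.00943 and 0.0465 for MsOc3HBC). On simulated data, edgeR recovered 74% of changes of 1 and 34% of changes of 0.5 on the log2 scale for HBC530 against DMSO, 80% and 26% for MsOc3HBC against DMSO, and 71% and 8% between the ligands. The true value lay within edgeR's 95% interval for 94.9%, 94.9% and 94.6% of genes. At an adjusted p under 0.05, 13 of 121, 4 of 110 and 12 of 91 edgeR calls were false in these comparisons. For DESeq2 25 of 146, 22 of 142 and 33 of 138 calls were false, so its added calls are less certain. The simulated counts were drawn independently for each gene and library from fitted means and dispersions. They lack the shift that replicate 3 of both ligands shared, so the coverage of the intervals in the real libraries was not tested.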

Additional observations from a re-analysis of the deposited data

How the results depend on the processing

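Of 430 values of the 10 genes under the alternatives, 411 kept their direction, 19 had the opposite sign, and 0 passed an adjusted p of 0.05. No scaling moved the median of all genes by over 0.1. Opposite signs arose for DELE1 with MsOc3HBC under upper-quartile scaling (0.0136), and between the ligands for EIF2AK4 without a filter (-0.00772) and without replicate 3 of both ligands (-0.00647). The others arose on leaving out 1 library, over ranges of -0.078 to 0.0022 for EIF2AK4 and -0.23 to 0.084 for GCN1 with HBC530. With MsOc3HBC they spanned -0.030 to 0.012 for DELE1, -0.047 to 0.11 for EIF2AK2, -0.020 to 0.19 for EIF2AK3 and -0.083 to 0.017 for PPP1R15B. Between the ligands they spanned -0.040 to 0.048 for EIF2AK4, -0.032 to 0.063 for EIF2S1 and -0.31 to 0.099 for GCN1.

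The number of genes called among all tested moved more. For HBC530 against DMSO (3) it was 23 in DESeq2, 52 without a filter, 5 in limma-voom and in 1 fit of all 9 libraries, and 2 to 6 with 1 library left out (6 without replicate 3 of HBC530). For MsOc3HBC against DMSO (27) it was 133 in DESeq2, 250 without a filter and 6 to 76 with 1 library left out. It was 6, 12 and 11 without DMSO replicates 1, 2 and 3, 10 without MsOc3HBC replicate 1 and 76 without replicate 3. Between the ligands (0) it was 25 in DESeq2, 12 without a filter, 4 in 1 fit of all 9 libraries, 0 with any 1 library left out and 1635 without replicate 3 of both ligands. The cause was not tested. With the replicate as a block it was 1990 between the ligands, where same-numbered libraries were taken as pairs. Against DMSO, where they were not, the block gave 16 and 149 genes and 0 of the 10. GCN1 with MsOc3HBC was then at an unadjusted p of 0.0453 (adjusted p = 0.424, edgeR).

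TPM from canonical transcript lengths, an alternative chosen after seeing the data, kept 4 of 10 places in the order of levels. With 3 libraries a side, changes of 0.5 on the log2 scale were recovered on simulated data in at most 34% of cases by edgeR. DESeq2 recovered at most 47%, with more false calls. The changed genes were drawn at random from all genes tested, so these shares are not the recovery for the 10 genes. The missing calls alone thus do not show that the 10 genes were unchanged. The coverage of their intervals in the real libraries was not tested.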
